A study of Mus musculus with 3 samples.

Results

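The Mecom locus of the mouse carried a dense group of Notch2 chromatin peaks in both replicates of an embryonic kidney experiment. The members described here are the peaks that lay wholly between positions 29750000 and 30500000 of chromosome 3 on the mm9 build, a window of 750 kb around the gene, which the selection rule places at about 29.85 to 30.41 Mb. They number 38 of the 28651 peaks of replicate 1 and 29 of the 12585 peaks of replicate 2, each repeated row counted once. The window was chosen by its many peaks and by their sharing between the replicates, so these numbers are a description and were not tested. As a background, 0.285% of 3503 windows of the same length held at least as many replicate 1 peaks, 0.200% held at least as many replicate 2 peaks, and 0.143% at least as many shared replicate 1 peaks, the Mecom window included.

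The assay was chromatin immunoprecipitation followed by sequencing (ChIP-seq) of whole embryonic kidneys of the mouse at E16.5, crosslinked with paraformaldehyde, and an antibody to Notch2 was used. The study had 2 immunoprecipitated samples, which the labels number as replicates 1 and 2, and 1 input sample of the same tissue. The sources used here do not give the strain, genotype, sex or number of kidneys per sample, nor whether the replicates came from separate litters, so a difference between the lists may be technical. Each replicate has a list of peaks with positions only. They hold no peak height or score, the read depth is unknown, and the input library was not used here.

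Mecom, also known as Evi1 or Prdm3, encodes a zinc finger transcription factor. The gene has more than one start, and a long product that includes the Mds1 part and a PR domain is known beside the shorter Evi1 product. It is best known from blood stem cells and leukaemia, and in the zebrafish pronephros it takes part in the formation of the distal tubule. Notch receptors are cleaved after contact with a ligand on a neighbouring cell, and the released intracellular part enters the nucleus and acts with the DNA-binding protein RBPJ. Nuclear Notch is therefore measured on chromatin, and a whole kidney holds many cell types whose shares in a peak cannot be told apart.

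The RefSeq tables of the GRCm38 build, which is not the build of the peaks, were used for names, gene order and promoter sequence, and no position was carried from one build to the other. In that annotation Mecom lies on the minus strand, so that its start is at the upper end of the window and its 3′ end at the lower end. The nearest protein-coding gene is Egfem1 beyond the 3′ end and Actrt3 beyond the start, followed by Mynn. The annotated non-coding genes within the gene are Gm52621, Mecomos and Gm10258. RefSeq gives 2 starts of Mecom, an outer and an inner one. A pair of peaks lay near the upper end of the gene, on the side of the outer start, and the 250 bases before each start are shown. The first sequence is chr3:30509760-30510009 and the second is chr3:30013205-30013454, both on GRCm38.p6 and on the minus strand, and written 5′ to 3′. The peaks are on mm9, so these positions cannot be set against theirs. The number of the inner start is close to the upper edge of a block described below, which does not place the start there. Capitals would mark the RBPJ core motif TGGGAA on either strand.
Mecom outer start: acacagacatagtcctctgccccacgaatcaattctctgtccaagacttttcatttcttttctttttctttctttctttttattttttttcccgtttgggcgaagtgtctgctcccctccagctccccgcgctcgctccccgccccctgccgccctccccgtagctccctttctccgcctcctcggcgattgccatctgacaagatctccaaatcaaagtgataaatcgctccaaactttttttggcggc
Mecom inner start: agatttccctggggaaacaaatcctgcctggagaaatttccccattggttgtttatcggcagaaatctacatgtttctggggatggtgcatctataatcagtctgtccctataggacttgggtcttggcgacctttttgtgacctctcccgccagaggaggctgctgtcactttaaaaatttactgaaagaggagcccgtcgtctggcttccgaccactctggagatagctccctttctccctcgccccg

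Neither sequence held the core motif TGGGAA or its complement TTCCCA, and so neither held the longer GTGGGAA, which contains it. Over the 32851 promoter entries of the table, 21.6% held the core motif and 5.42% the longer one in the same 250 bases, searched on both strands. This says only that the letters are not in these windows. The share of G and C was 50.8% before the outer start and 50.4% before the inner one, against a median of 52.4% (interquartile range 45.2 to 61.2%) over the table. The sequences under the peaks themselves were not analysed here.

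A peak counted as shared when it overlapped one of the other list by 1 bp or more. At Mecom 25 of the 29 replicate 2 peaks were shared, or 86.2% (95% Wilson interval 69.4 to 94.5%, counting error only). For replicate 1 the number was 25 of 38, or 65.8% (95% Wilson interval 49.9 to 78.8%). The overlaps made 25 pairs, and in each pair both peaks were covered by at least 50%. Over the whole lists 75.5% of replicate 2 peaks and 33.0% of replicate 1 peaks were shared. Dense windows, given next, were chosen by their replicate 2 peaks. That choice favours a high shared share of replicate 1 and few replicate 1 peaks for each of replicate 2. In the 301 windows with 10 or more replicate 2 peaks the median share of replicate 2 was 78.6% (interquartile range 69.2 to 87.5%), and 27.6% of these windows reached the Mecom value, so that the shared share of replicate 2 at Mecom was not unusual among dense windows. For replicate 1 their median was 52.6% (interquartile range 42.1 to 63.0%). Replicate 1 had 1.31 peaks at Mecom for each of replicate 2, and the median of these windows was 1.47. The shared share of replicate 2 at Mecom was 69.0% when replicate 1 was limited to its first 12585 peaks, and 51.7% when it was limited to its widest 12585. Shares of the whole lists and of dense windows under these limits are not given here, so these values cannot be set against those above.

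**Figure D1:**
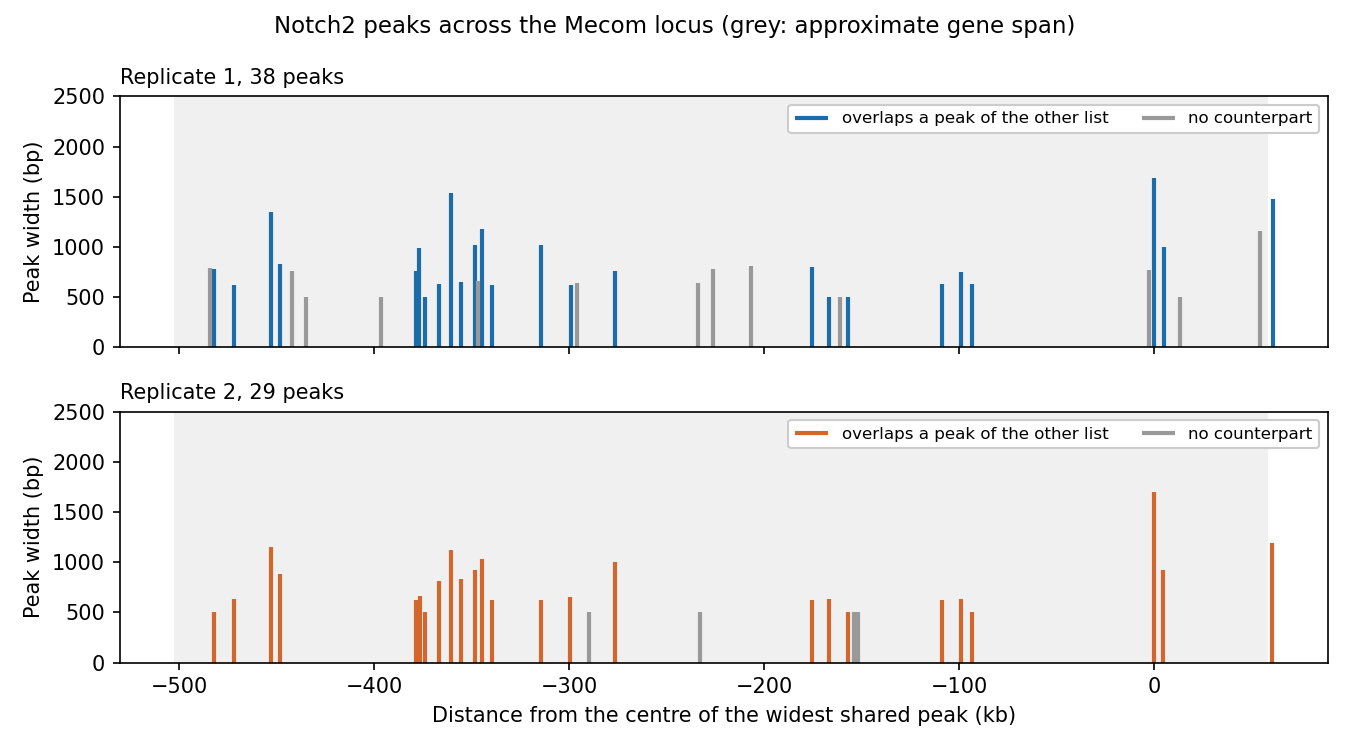
Peaks of the Mecom locus by distance from the centre of the widest shared peak (horizontal axis, kb) and by width (vertical axis, bp), with replicate 1 above and replicate 2 below. Coloured lines are peaks that overlap a peak of the other list, grey lines are the 13 and 4 peaks without a counterpart, and the shaded band is the approximate gene span; the densest group, with 10 and 9 peaks, stands in the left part of both panels.

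Nearly all of the peaks lay within the gene. Within the approximate gene span lay 37 of the 38 replicate 1 peaks and 28 of the 29 replicate 2 peaks, and the last pair lay just above its upper end, which the rule gives rounded. The window was drawn around this span, which fills most of it, so these numbers follow in part from the choice of the window. Below the first member, replicate 1 had no peak for 217 kb and replicate 2 none for 431 kb. Above the last member the empty stretch was 87.4 kb in replicate 1 and 580 kb in replicate 2. Just outside the window, replicate 1 had a peak of 500 bp from 29650322 and one of 1004 bp from 30501123. The replicate 2 peaks nearest to the window began at 29438123 and 30993632 and measured 500 bp each. Just inside it, the first and last peaks measured 791 and 1478 bp in replicate 1 and 500 and 1190 bp in replicate 2. The adjoining window of the same length below, on the Egfem1 side, held 2 and 1 peaks, and the one above, on the side of Actrt3 and Mynn, held 14 and 4.

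Inside the gene the peaks were fewest in the part next to the outer start. The gene span was divided into 4 equal parts of 140 kb. From 29.85 to 29.99 Mb there were 12 peaks in replicate 1 and 8 in replicate 2, and from 29.99 to 30.13 Mb there were 12 and 10. From 30.13 to 30.27 Mb there were 8 in each list, and from 30.27 to 30.41 Mb, next to the outer start, there were 5 and 2. Pairs numbered 8, 8, 6 and 2 in the same order. With peaks of either list joined when their edges lay within 12.5 kb, the locus fell into 12 blocks, separated by stretches of 14.5 to 89.7 kb without peaks. The longest of these ran from 30259355 to 30349091. Shared peaks of replicate 1 lay a median of 8.68 kb from the next one at Mecom, against 82.4 kb over the whole list. A short spacing follows from the choice of the window by its many shared peaks, so it is a description.

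The densest block ran from 29973385 to 30012866, and measured 39.5 kb. It held 10 peaks of replicate 1 and 9 of replicate 2, of which all 9 were paired. No cluster of shared peaks in the genome held more than 9 at this joining distance, and 3 of 7728 held that many, the Mecom cluster included. The window was chosen by its many shared peaks, so this rank is a description. With a joining distance of 5 kb the largest cluster at Mecom held 3 shared peaks. Place in file order, counted from 1, is given here as a second description of a peak, because the lists hold no score and the sources used here do not describe the order. The peak from 30006792 to 30007966 was 1175 bp wide in replicate 1 and had a replicate 2 partner of 1031 bp, and it stood first among the Mecom peaks in both lists, at place 98 of replicate 1 and place 281 of replicate 2. The peak from 29990776 to 29992314 was the widest of the block, with 1539 bp at place 278 of replicate 1 and 1121 bp at place 723 of replicate 2. The peak from 30003649 to 30004668 measured 1020 and 922 bp, at places 926 and 541. These 3 pairs were wide and early in both lists.

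The other 6 pairs of the block ranged from early to late places. The pair at the lower edge, from 29973385 to 29974146, measured 762 and 628 bp and had places 1159 and 1967. At the upper edge, the pair from 30012242 to 30012866 measured 625 and 626 bp and had early places, 1957 and 650, for its small width. The pair from 29985113 to 29985740 measured 628 and 812 bp at places 4888 and 4094. The pair from 29975009 to 29975997 measured 989 and 659 bp at places 4377 and 7079, and its centres lay 224 bp apart, the largest distance in the locus. The pair from 29996511 to 29997157 stood late in replicate 1, at place 19935, and in the first 50% of replicate 2, at place 4221. The pair from 29977896 to 29978395 had 500 bp in both lists and was late in both, at places 27093 and 12169. The remaining peak, from 30005223 to 30005882, was found in replicate 1 alone and lay 0.506 kb from the nearest replicate 2 peak.

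Below this block, towards the 3′ end, lay 2 smaller blocks and a lone peak. The block from 29898771 to 29917558 held a pair that was wide and early, with 1348 bp at place 202 in replicate 1 and 1147 bp at place 838 in replicate 2. Its other pair, from 29903554 to 29904383, measured 830 and 884 bp at places 2405 and 1263. The lowest block, from 29867579 to 29880913, held pairs that stood later in replicate 2 than in replicate 1. The pair from 29869626 to 29870404 measured 779 bp at place 2669 in replicate 1 and 500 bp at place 7294 in replicate 2, and the pair from 29880288 to 29880913 measured 626 and 630 bp at places 4856 and 6268. Both were within the first 25% of replicate 1. The lone peak, from 29955810 to 29956309, measured 500 bp and was found in replicate 1 alone.

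Above the densest block the peaks were spread more thinly over the middle of the gene. The pair from 30037121 to 30038136 stood alone, with 1016 bp at place 1019 and 628 bp at place 617. The next block, from 30052635 to 30076191, held a pair of 761 and 998 bp at places 1891 and 867, and a pair from 30052710 of 626 and 657 bp at places 4343 and 5917. These pairs were the last before a stretch of 100.2 kb without a shared peak, which held 3 peaks of replicate 1 and 1 of replicate 2 without a counterpart, all narrower than 1000 bp. In the block from 30176340 to 30200585 the 3 pairs had 804 and 626 bp at places 6376 and 4739, 500 and 633 bp at places 23663 and 7818, and 500 bp in both lists at places 23035 and 9754. The last 2 of these were late in both lists. The block from 30242999 to 30259354 held 3 peaks in each list, all paired. Its middle pair, from 30252958 to 30253709, measured 752 and 631 bp and stood at place 374 of replicate 1 but 2806 of replicate 2. The pairs beside it measured 630 and 625 bp at places 5714 and 8045, and 629 and 500 bp at places 17371 and 7001.

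Near the outer start the peaks were few, and all 3 pairs there were wider than 900 bp in both lists. The widest pair of the locus ran from 30351403 to 30353088 in replicate 1. In replicate 2 it ran from 30351382 to 30353082. Its peaks measured 1686 and 1701 bp and had places 849 and 452. Its centres lay 13.5 bp apart. Close to it, the pair from 30356556 to 30357554 measured 999 and 920 bp at places 1525 and 3563. The last pair, from 30412238 to 30413715, measured 1478 and 1190 bp at places 5006 and 3549, and its centre in replicate 1 lay 2.98 kb above the approximate upper end of the gene. In the block of the widest pair replicate 1 had 2 further peaks without a counterpart, of 774 bp from 30349092 and of 500 bp from 30365003. In the block of the last pair replicate 1 had a further wide peak, from 30405847 to 30407005, with 1159 bp at place 7144, which lay below that end and 5.19 kb from the nearest replicate 2 peak. The distances to the gene's end carry the rounding of the rule, so none of these peaks is assigned to the promoter.

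**Figure D2:**
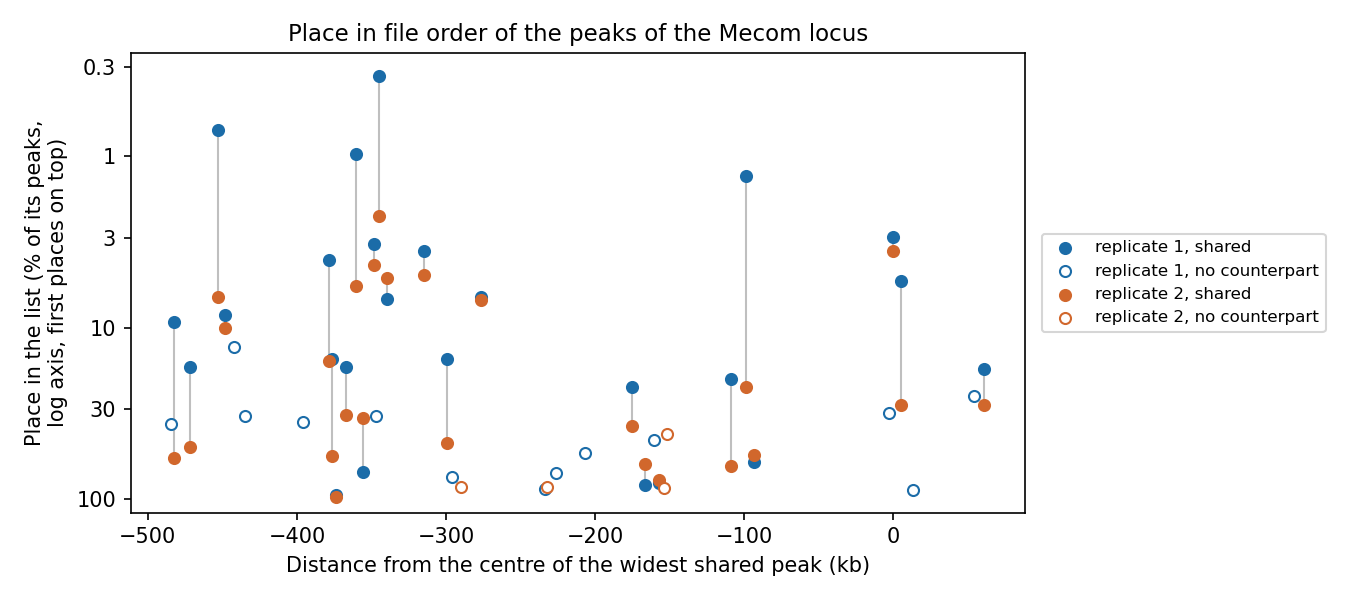
Place in file order of each Mecom peak as a percentage of its list (vertical axis, logarithmic, first places on top) by distance from the centre of the widest shared peak (horizontal axis, kb). Filled points are shared peaks, open points have no counterpart and grey lines join the peaks of a pair; the first places, 98 in replicate 1 and 281 in replicate 2, belong to the same pair.

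Against dense windows, Mecom peaks stood early in replicate 1, and in replicate 2 their median place was within the middle range of these windows. Of the 38 replicate 1 peaks 8, or 21.1%, were within the first 5% of the list, and of the 29 replicate 2 peaks 4, or 13.8%. In the dense windows the medians of these shares were 8.33% (interquartile range 4.55 to 14.3%) and 7.14% (0 to 11.8%), and 18 and 68 of the 301 windows, Mecom included, reached the Mecom values. The median place was at 18.7% of the list in replicate 1 and 33.5% in replicate 2, against medians of 39.6% (interquartile range 31.2 to 48.1%) and 41.9% (32.0 to 53.4%) over the dense windows. Of the 25 pairs, 4 were within the first 5% of both lists, namely those beginning at 30003649, 30006792, 30037121 and 30351403 in replicate 1. The number among all 9442 pairs was not computed. It cannot exceed 629, the number of replicate 2 peaks in the first 5% of that list. By percentage of the list, 20 of the 25 pairs (80.0%) stood earlier in replicate 1, close to the 74.2% of all 9442 pairs of these lists of unequal length.

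In replicate 1 the median width was just below the upper quartile of the dense windows, and in replicate 2 it was near their median. The median width was 762 bp in replicate 1 (500 to 1686 bp) and 631 bp in replicate 2 (500 to 1701 bp), where the dense windows had medians of 697 bp (interquartile range 635 to 763 bp) and 630.5 bp (563 to 643 bp). The narrowest width, 500 bp, made up 18.4% of replicate 1 and 27.6% of replicate 2 at Mecom, below the lower quartile of the dense windows in both lists (medians 26.3% and 41.2%, lower quartiles 19.0% and 30.8%). Of the 301 dense windows, Mecom included, 79 and 148 reached the Mecom median widths in replicates 1 and 2. For the share of 500 bp peaks, 232 and 251 reached the Mecom values. Of these narrow peaks 3 of 7 were shared in replicate 1 and 4 of 8 in replicate 2, against 16.2% and 63.3% of the 500 bp peaks over the whole lists. Both widths were 1000 bp or more in 5 of the 25 pairs, and the share over all pairs was not computed. Replicate 1 was the wider in 14 pairs (56%), replicate 2 in 9, and 2 had equal widths. Over all 9442 pairs replicate 1 was the wider in 6295 (66.7%), replicate 2 in 2138, and 1009 had equal widths.

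**Figure D3:**
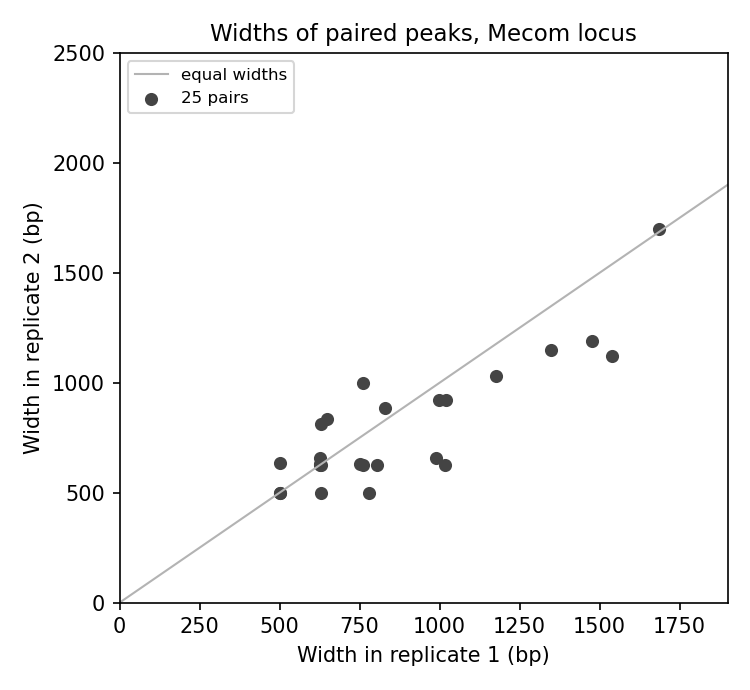
Width of each of the 25 paired Mecom peaks in replicate 1 (horizontal axis, bp) and replicate 2 (vertical axis, bp), with the line of equal widths. The pair of 1686 and 1701 bp lies close to the line, and the other pairs of 1000 bp or more in both lists lie below it.

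By the median, paired peaks at Mecom lay about as close together as all pairs of the lists. Their centres were a median of 73 bp apart (6 to 224 bp), within 100 bp in 19 of 25 pairs and within 250 bp in all of them. Over all 9442 pairs of the lists the median was 81 bp, with 58.7% within 100 bp and 88.4% within 250 bp. The widths of the Mecom pairs had a Spearman rho of 0.71 and the places one of 0.84 (n = 25 pairs), and over all pairs of the lists these were 0.42 and 0.61. The pairs share their libraries and were selected for overlap, so the correlations are a description.

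Peaks without a counterpart stood later in the lists than shared ones at Mecom, as they did over the whole lists, where the medians were 61.8% unshared against 23.5% shared in replicate 1 and 71.5% against 41.9% in replicate 2. The 13 of replicate 1 measured 500 to 1159 bp and had a median place at 36.7% of the list, where the 25 shared ones had 9.32%. The widest of the 13 was the peak of 1159 bp from 30405847. The earliest was the peak from 29909680 to 29910441, with 762 bp at place 3715, and it lay 5.33 kb from the nearest replicate 2 peak. Of the 13, 4 lay within 2 kb of a replicate 2 peak, and the farthest, from 30145334 to 30146147, lay 25.5 kb away. All 4 unshared peaks of replicate 2 measured 500 bp. Their median place was at 85.1% of the list, where the 25 shared ones had 28.3%, and the earliest, from 30200086 to 30200585, had place 5263. The other three began at 30062326, 30119364 and 30198320 and lay at places 10701 to 10821. The replicate 2 peak from 30119364 lay 0.519 kb from a replicate 1 peak without overlapping it.

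**Figure D4:**
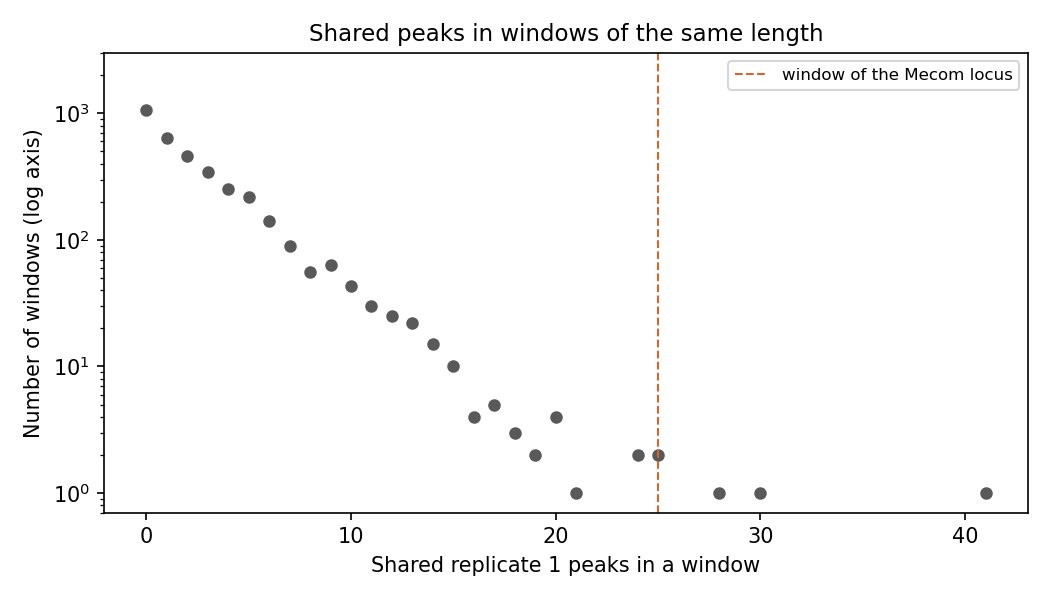
Number of windows (vertical axis, logarithmic) by the number of shared replicate 1 peaks they held (horizontal axis), for 3503 windows of the same length. The dashed line marks the Mecom window with 25 shared peaks; 3 windows lie to its right, with 28, 30 and 41.

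Of the 3503 windows, 3 held more shared replicate 1 peaks than the Mecom window, and 1 other held as many, where the median was 2 and 30.5% of windows held none. The window with most ran from 78000001 to 78750000 on chromosome 7, with 41 shared peaks among 49 in replicate 1 and 50 in replicate 2. The next were on chromosome 14 from 23250001 to 24000000, with 30 shared among 46 and 37 peaks, and on chromosome 12 from 80250001 to 81000000, with 28 shared among 46 and 36. The replicate 1 peaks had a median width of 762 bp at Mecom and of 908, 899.5 and 935 bp in these windows, a difference that was not tested. In replicate 2 the median was 631 bp at Mecom and 769.5, 631 and 672.5 bp in these windows, so that the chromosome 14 window equalled Mecom. The Mecom share of replicate 1 peaks in the first 5% of the list, 21.1%, lay beside 30.6, 34.8 and 19.6%. The median place in replicate 1 was at 18.7% of the list at Mecom and at 13.3, 15.6 and 19.3% in these windows. In replicate 2 it was at 33.5% at Mecom, later than the 15.9, 12.0 and 23.1% of these windows. The largest cluster of shared peaks held 9 at Mecom and 9, 7 and 6 in these windows.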

How the data were processed

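Notch2 ChIP-seq peaks of 2 samples of mouse embryonic kidney were analysed. The authors deposited 1 peak list per immunoprecipitated sample with 3 columns, chromosome, start and end, and no score or count. Bowtie, SAMtools, HOMER and mm9 appear in the submitters' processing notes, with no role or version, and the sources used here give neither settings nor the use of the input. The lists differ in length for reasons the sources used here do not give. Numbers and shared shares may depend on the unknown depths, which was not tested. Starts were counted from 1 and repeated rows once. Members were peaks wholly inside the window, and sharing meant an overlap of at least 1 bp. Windows of 750 kb were tiled outward from the Mecom window on chromosome 3 and from the first base elsewhere, and peaks were assigned by centre. Blocks and clusters joined edges within 12500 bp. The members, lists and measures were chosen with earlier results of these data known, and no test was made. The named peaks were all pairs, and the widest and the first-placed peak of each list, with and without counterpart. Further unshared peaks were named after their values were seen. The windows named were the 3 with most shared peaks and the 2 adjoining. Overlap, window and cluster counts were checked on simulated data and with bedtools 2.31.1. Scripts ran under Python 3.11.15 with scipy 1.17.1, pandas 2.3.3, numpy 2.4.6 and matplotlib 3.10.9.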

Additional observations from a re-analysis of the deposited data

How the results depend on the processing

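Of 22 recomputed values 17 stayed within 1.5 times a count or within the counting interval of a share or median. The first 50% of the list left 19 of the 29 replicate 2 peaks. The shared share of replicate 2 was 65.5% with centres within 100 bp, 69.0% with replicate 1 limited to as many peaks in file order and 51.7% by width, lower by construction. The largest cluster of shared peaks held 3 at a joining distance of 5 kb, again by construction. Windows with at least as many shared peaks as Mecom numbered 5 of 3503, and 8 (0.228%) in the first 50% of each list. The restriction to autosomes was chosen after seeing the data. No paired analysis was possible because the 2 peak lists belong to 1 group, and without either replicate there is no overlap. The unknown depth limits what can be said of peaks found in 1 list.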

Other observations

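Some rows of the deposited lists occur more than once. At Mecom this held for none of the replicate 1 peaks and for 2 of the replicate 2 peaks, the wide ones from 29898932 to 29900078 and from 30351382 to 30353082, each listed 2 times. Over the whole lists 237 of 28651 and 440 of 12585 peaks were listed more than once.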
